A study of Oryza sativa with 15 samples.

Results

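Severe soil drying was set against full watering in whole shoots of rice seedlings (Oryza sativa cultivar Nipponbare, a japonica variety), to show which messenger RNAs differ in shoots of plants raised in very dry soil. The labels chose the libraries: 3 from pots held at 1.25 g of water per g of soil (severe drought) and 3 from pots held at 3 g per g (wet control), which are 6 of the 15 libraries of the series. Plants of both groups had been germinated for 3 days and raised for 10 days, 7 to a pot, with 12 h of light a day, 30 °C by day, 27 °C by night and 90% humidity. Neither group was heated, both carried the unmodified Nipponbare genotype as far as the labels go, and shoots were cut 6 h after dawn. A mild drought group, 3 libraries from pots at 1.5 g per g, is used only where levels in it are set beside those of the other 2. Whether replicates stood in separate pots is not in the labels, and a p-value here speaks for the spread among these samples, part of which may be technical.

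Drying soil leads plants to make abscisic acid (ABA), a hormone that closes stomata. ABA bound to its receptors blocks clade A protein phosphatases 2C (PP2C), which frees SnRK2 kinases (SAPK in rice) to activate ABF-type bZIP factors. Genes for the PP2C phosphatases are themselves ABA targets and act as a brake on the pathway. Rice takes up iron both as ferrous iron and, as grasses do, with phytosiderophores, chelators made from nicotianamine.

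The severe drought libraries held 52596199 to 60320309 counts each, and the wet control libraries 60453774 to 68226451. Of 24073 genes, 20462 passed the filter on low counts. Wet control replicate 3 stood apart from its group: its counts differed from those of the other 2 wet libraries by a chi-square per gene of 302.2 and 495.3, against 160.7 between those 2 and 67.9 to 174 within severe drought. The first principal component of log2 CPM over the 6 libraries (CPM is a count scaled to a common library size, here with TMM factors) held 46.5% of the variance and ran between severe drought replicate 1 and wet control replicate 3, at -102.5 and 114.8. It did not part the groups, since the other 2 severe libraries, at -8.7 and -31.8, lay on either side of wet control replicate 2 at -12.9. The shoot identity was checked on the 2 chlorophyll a/b-binding proteins CAB1R and CAB2R, which had 13285 to 23537 CPM in severe drought and 9972 to 18714 CPM in the wet control. Of the root markers, the silicon channel LSI1 had 15.3 to 29.4 CPM in severe drought, against 11.5 to 18.9 CPM in the wet control, while LSI2, CASP1, QHB and WOX11 had at most 0.101 CPM in any of the 6 libraries, and the endosperm glutelins GLUB4 and GLUB5 had 0 counts.

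In severe drought 335 genes were higher (1.64% of those tested) and 215 lower (1.05%) at an adjusted p under 0.05, by edgeR's quasi-likelihood test with Benjamini-Hochberg adjustment, the test behind every adjusted p in the text unless another is named. The genes that rose had a median log2 fold change of 1.10, and 189 of them at least doubled. The genes that fell had a median of -2.19, and 180 of them fell at least 2-fold, with log2 fold changes down to -14.32. For each of these genes the 3 severe libraries did not overlap the 3 wet ones, which was also true of 19.9% of all genes tested. The genes that rose held 5.35%, 5.15% and 6.07% of all counts in the severe drought libraries, against 2.69%, 2.64% and 2.43% in the wet control. The genes that fell held 0.388%, 0.308% and 0.306% of counts in severe drought, against 1.92%, 2.40% and 2.65% in the wet control. Both sets were picked on these same 6 libraries, so a gap between the 2 groups was built in, and the shares give its size only. Mild drought lay nearer to severe drought in both sets. There the genes that rose held 4.81%, 5.03% and 4.99% of counts, and the genes that fell 0.734%, 0.455% and 0.734%. Calls were made at every level of expression, and the share that rose was 0.29% of genes averaging under 1 CPM and 3.9% of genes over 100 CPM, while the share that fell was 0.697% and 1.74% in the same classes. Among tested genes in the order of their locus numbers, 32 of the 215 that fell and 18 of the 335 that rose stood next to another gene called in the same direction.

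The spread behind these tests was estimated over all 15 libraries, heat groups included. With the 2 groups alone 13 genes rose and 19 fell. Of the 33 listed genes called below, only 5 were called in that fit: NAAT1, IRT2, YSL2, LEA3-2 and PP2C09. With total counts in place of TMM factors 200 rose and 257 fell. The median over all genes then lay at -0.17 on the log2 scale, against -0.02 with TMM factors.

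**Figure D1:**
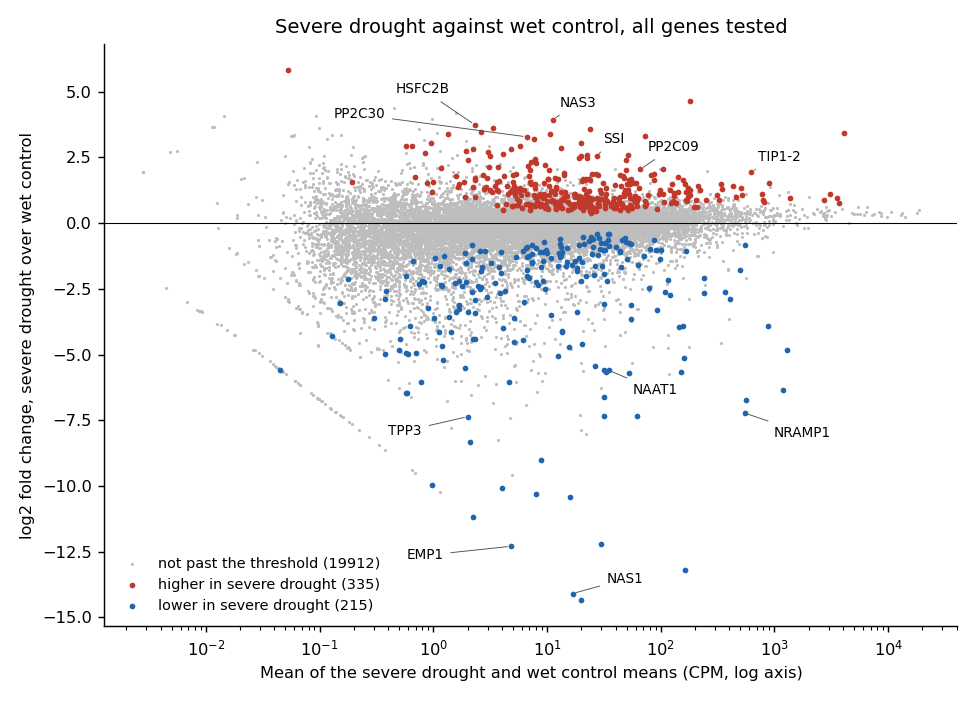
Each point is 1 of the 20462 genes tested. The horizontal axis is the mean of the severe drought and wet control means in CPM on a log axis, and the vertical axis is the log2 fold change of severe drought over the wet control. The 335 genes that rose (red) had a median of 1.10, while the 215 that fell (blue) had a median of -2.19 and reached -14.32.

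Lists of genes known from rice physiology were then read one by one, 355 genes whose names could be matched to the table, of which 322 were tested. Of these, 18 rose (5.59%) and 15 fell (4.66%), in 14 lists. The lists were drawn up with earlier results of these data known, so these shares describe the lists only. Over all genes tested the shares were 1.64% and 1.05%, so a short list without a call is near them. Counts below are of genes with a checked name. Listed loci without one, 129 of them tested, held 1 that rose and 8 that fell in the iron list, and among the 114 in the other lists 2 rose (1 chlorophyll and 1 clock gene) and 2 fell (1 ABA signalling gene and 1 stress transcription factor).

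The ABA synthesis gene NCED3 and most genes of the phosphatase brake rose in severe drought. NCED3, the 9-cis-epoxycarotenoid dioxygenase that cleaves the carotenoid precursor of ABA, had 2.41, 5.08 and 2.73 CPM in severe drought, against 0.274, 0.817 and 0.848 CPM in the wet control. The lowest severe library was above the highest wet one, and the log2 fold change was 2.40 ± 0.46 (SE, adjusted p = 0.0163). Without severe drought replicate 2 it was 2.01 with an adjusted p of 0.0565. In mild drought NCED3 had 0.526, 1.44 and 0.861 CPM, and the direct log2 fold change of severe over mild drought was 1.85 ± 0.45 with an adjusted p of 0.99, in a comparison where edgeR called 0% of genes (569 genes had an unadjusted p under 0.05, and DESeq2 called 46). NCED3 was the only 1 of the 5 tested genes of ABA synthesis and breakdown past the threshold. The ABA 8'-hydroxylase ABA8OX1, which breaks ABA down, had 2.13, 4.02 and 2.52 CPM in severe drought, against 7.75, 4.01 and 5.22 CPM in the wet control (log2 fold change -0.97 ± 0.33, adjusted p = 0.136), and its groups overlapped.

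Of the 9 PP2C genes tested, 7 rose and none fell, against 1.64% and 1.05% of all genes tested. The family median log2 fold change was 2.05, against -0.02 over all genes. PP2C09 had 82.7, 139 and 97.5 CPM in severe drought, against 25.6, 27.7 and 24.0 CPM in the wet control. Its 3 wet values lay close together and all 3 severe values were higher (log2 fold change 2.05 ± 0.20, adjusted p = 0.000755). PP2C09 was also 1 of the 5 listed genes called with the 2 groups alone (adjusted p = 0.0490). PP2C08 had 10.96, 17.2 and 12.0 CPM in severe drought, against 2.21, 3.90 and 2.09 CPM in the wet control, a log2 fold change of 2.29 ± 0.29 (adjusted p = 0.00215).

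PP2C30 and PP2C68 rose by 3.28 ± 0.40 and 2.95 ± 0.43 on the log2 scale. Their adjusted p was 0.00181 and 0.00368, and 0.105 and 0.114 with the 2 groups alone. PP2C49 had 4.68, 23.8 and 11.1 CPM in severe drought, against 2.66, 2.23 and 2.37 CPM in the wet control. Severe drought replicate 2 was the highest here and in 8 of the 9 genes of the family, and without it the log2 fold change of PP2C49 was 1.72, against 2.45 with all libraries, and its adjusted p was 0.0501. PP2C06 rose by 1.49 ± 0.31 and PP2C50 by 0.98 ± 0.23 (adjusted p = 0.0259 and 0.0382). Leaving out 1 library ended the call of these last 3 genes in most cases: for PP2C49 severe drought replicate 2 and each wet replicate, for PP2C06 severe drought replicates 2 and 3 and wet replicates 1 and 3, and for PP2C50 each severe replicate and wet replicates 1 and 3, with adjusted p of 0.0501 to 0.108. The remaining pair, PP2C51 and PP2C53, did not pass, and PP2C53 had 32.7, 30.0 and 26.2 CPM in severe drought, against 27.6, 31.7 and 25.4 CPM in the wet control.

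**Figure D2:**
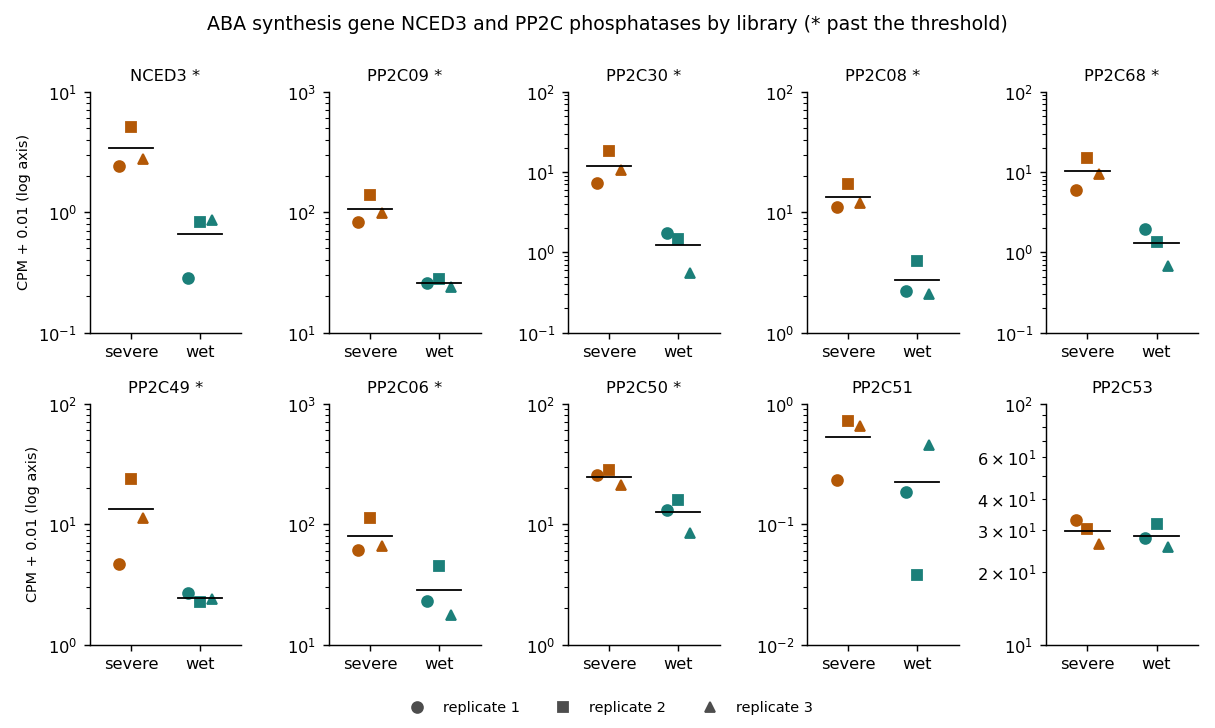
Each panel gives 1 gene, with CPM + 0.01 on a log axis for the 3 severe drought libraries (left) and the 3 wet control libraries (right). Symbols mark replicates 1 to 3, bars are group means, and an asterisk marks an adjusted p under 0.05. NCED3 and 7 PP2C genes were higher in all 3 severe libraries, while the groups of PP2C51 and PP2C53 overlapped.

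The kinases and transcription factors downstream did not pass the test. None of the 10 SnRK2 kinase genes, SAPK1 to SAPK10, was called, with log2 fold changes of -0.54 to 0.19. With 1.64% of all genes tested called higher and 1.05% lower, a family of 10 may hold no call. The groups of 2 of the 10 did not overlap, a share near the 19.9% of all genes tested. SAPK2 had 17.3, 28.5 and 28.8 CPM in severe drought, against 32.1, 31.0 and 44.2 CPM in the wet control (adjusted p = 0.249), and SAPK5 had 47.4, 50.01 and 47.1 CPM in severe drought, against 39.6, 46.4 and 41.1 CPM in the wet control (adjusted p = 0.52). BZIP23, an ABF-type factor, had 24.9, 50.3 and 33.1 CPM in severe drought, against 19.9, 18.4 and 25.03 CPM in the wet control (log2 fold change 0.77 ± 0.22, adjusted p = 0.0811), and TRAB1, of the same kind, had a log2 fold change of 0.50 ± 0.15 (adjusted p = 0.104).

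Among listed transcription factor genes with a checked name, 3 rose: HOX22, HSFC2B and HSFC2A. HOX22, a homeodomain-leucine zipper class I factor, had 62.3, 79.5 and 53.5 CPM in severe drought, against 19.9, 29.0 and 24.6 CPM in the wet control (log2 fold change 1.41 ± 0.18, adjusted p = 0.00197). Of 13 tested stress transcription factors with a checked name no other passed, 1 of the 11 without one fell, and DREB1A, DREB1B, DREB2A, NAC5 and NAC6 had log2 fold changes of -0.33 to 0.06. HSFC2B, a class C heat shock factor, had 1.49, 6.19 and 5.25 CPM in severe drought, against 0.510, 0.125 and 0.323 CPM in the wet control (log2 fold change 3.74 ± 0.61, adjusted p = 0.00639, and 0.142 with the 2 groups alone). In mild drought it had 0.668, 0.652 and 0.905 CPM, and severe over mild drought gave 2.54 ± 0.58 with an adjusted p of 0.845.

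HSFC2A rose by 1.82 ± 0.39 (adjusted p = 0.0267), a call that ended without severe drought replicate 2, wet control replicate 1 or wet control replicate 3 (adjusted p = 0.0962, 0.0996 and 0.0745). None of the 16 tested class A and class B heat shock factors was called, nor any of the 10 heat shock proteins and chaperones. Over all genes tested 1.64% rose and 1.05% fell, and at those shares lists this short may hold no call. HSFA2D, with no overlap between groups, had 174, 140 and 169 CPM in severe drought, against 67.7, 121 and 56.0 CPM in the wet control (adjusted p = 0.0633). HSP81-1, an HSP90 chaperone, had 123, 135 and 134 CPM in severe drought, against 189, 165 and 218 CPM in the wet control (log2 fold change -0.54 ± 0.15, adjusted p = 0.0775). Wet control replicate 3 was the top wet library in 9 of the 10 heat shock proteins and chaperones. Without it their list median of -0.32 was 0.38, and the log2 fold change of HSP81-1 was -0.43.

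No listed gene for late embryogenesis abundant (LEA) proteins, which coat other proteins as cells dry, was called higher. Of 17 tested genes for LEA proteins, dehydrins and compatible solutes, none was called higher and 4 fell, against 1.64% and 1.05% of all genes tested. At the first share a list of 17 may hold no gene called higher, and 5 of the 17 had a positive fold change. The list median was -0.24. LEA3-2, a LEA protein gene, had 0.845, 1.64 and 1.30 CPM in severe drought, against 30.4, 92.3 and 71.6 CPM in the wet control (log2 fold change -5.67 ± 1.02, adjusted p = 0.0115). Without severe drought replicates 1 and 3 its adjusted p was 0.0575 and 0.0657. EMP1, an Em-type LEA protein gene of the seed, had 0 counts in severe drought, against 2.90, 18.4 and 7.66 CPM in the wet control. That is at least 574.1-fold lower, with 3 counts over the severe group as the floor. With wet control replicate 2 left out it was 316.5, and with severe drought replicate 2 left out 356.9, and the call (adjusted p = 0.0403) ended whichever of the 6 libraries was left out (adjusted p = 0.0573 to 0.125).

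Both other genes of the list that fell encode trehalose-6-phosphate phosphatases, which make the sugar trehalose. TPP2 had 2.70, 3.17 and 2.52 CPM in severe drought, against 9.09, 19.3 and 11.5 CPM in the wet control (log2 fold change -2.25 ± 0.32, adjusted p = 0.00346). It was called whichever library was left out, but not with the 2 groups alone (adjusted p = 0.0725). Its mild drought levels were 2.45, 3.54 and 3.33 CPM, and severe over mild drought gave -0.15 ± 0.31. TPP3 had 4 counts in all in severe drought, against 881 in the wet control, with 0.845, 8.59 and 2.58 CPM in the 3 wet libraries (adjusted p = 0.0177). Its adjusted p was 0.0719 and 0.0898 without severe drought replicates 2 and 3, and its fitted log2 fold change of -7.36 was -11.04, -6.72 and -6.17 with severe drought replicate 1, severe drought replicate 2 and wet control replicate 2 left out in turn. The dehydrin LIP9 had 15.1, 29.5 and 21.1 CPM in severe drought, against 15.4, 21.7 and 16.4 CPM in the wet control (adjusted p = 0.511). The 4 RAB16 dehydrins had at most 0.591 CPM in any of the 6 libraries.

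Water channels rose in part. Of 19 tested aquaporins 3 rose and none fell, against 1.64% and 1.05% of all genes tested, with a list median of -0.04. TIP1;2, a channel of the vacuole membrane, had 1030, 848 and 1106 CPM in severe drought, against 244, 298 and 227 CPM in the wet control. The groups stood far apart, with the lowest severe library at 848 and the highest wet one at 298 (log2 fold change 1.96 ± 0.21, adjusted p = 0.00089, and 0.0518 with the 2 groups alone). This channel had 1011, 763 and 825 CPM in mild drought, and severe over mild drought gave 0.20 ± 0.20. None of the 5 other TIP genes tested was called. Of 10 plasma membrane channels tested, PIP2;2 rose by 0.99 ± 0.18 and PIP1;1 by 0.86 ± 0.16 (adjusted p = 0.0113 and 0.0140). Both calls ended when severe drought replicate 3 or wet control replicate 1 was left out (adjusted p = 0.0506 to 0.0608).

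Iron genes formed the list with the lowest median among lists that held a call. Of 15 tested genes of iron uptake, phytosiderophore synthesis and iron handling, 1 rose and 7 fell, against 1.64% and 1.05% of all genes tested. The list median was -3.94, against -0.02 over all genes. The median was -2.46 when wet control replicate 3 was left out, -2.79 with the 2 groups alone and -2.16 over all 30 listed iron loci, those without a checked name included. The 15 iron loci whose names could not be checked, and are not given, held 1 that rose and 8 that fell, the 8 by -1.50 to -11.17. Beside these falls, the summed level of the root markers was 22.7, 15.5 and 29.7 CPM in severe drought, against 11.9, 18.6 and 19.5 CPM in the wet control, nearly all of it LSI1. SHR1, the other root marker tested, had 0.147, 0.144 and 0.135 CPM in severe drought, against 0.298, 0.471 and 0.512 CPM in the wet control. Its groups did not overlap, on 26 counts against 96 (log2 fold change -1.57 ± 0.79, adjusted p = 0.302). In whole shoots, fewer cells of a type and less RNA per cell cannot be told apart.

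In the synthesis of nicotianamine and phytosiderophores, NAAT1 encodes nicotianamine aminotransferase, which leads nicotianamine into phytosiderophores. NAAT1 had 1.95, 1.46 and 0.842 CPM in severe drought, against 35.0, 82.1 and 88.8 CPM in the wet control. Every severe library was far under every wet one, with a log2 fold change of -5.60 ± 0.59 (adjusted p = 0.00089, and 0.0258 with the 2 groups alone). In mild drought it had 9.16, 5.80 and 15.9 CPM, between the other 2 groups. Severe over mild drought gave -2.86 ± 0.53 with an adjusted p of 0.805.

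The nicotianamine synthase genes split by member. NAS1 had 0 counts in the severe drought libraries, against 4.31, 27.6 and 68.8 CPM in the wet control, at least 2006-fold lower (adjusted p = 0.00248, and 0.138 with the 2 groups alone). With wet control replicate 3 left out this bound was 937.4, and with severe drought replicate 2 left out it was 1247. NAS2, the neighbouring gene, had 0, 0.0577 and 0 CPM in severe drought (4 counts in all), against 2.64, 19.9 and 72.7 CPM in the wet control (7049 counts; adjusted p = 0.00504). In both genes replicate 1 was the lowest and replicate 3 the highest wet library, and reads may be shared between these closely related neighbours. NAS1 had 0, 0 and 0.0292 CPM in the mild drought libraries, and NAS2 had 0 CPM in each of them. NAS3 rose instead: it had 18.9, 13.2 and 31.0 CPM in severe drought, against 1.91, 1.63 and 0.579 CPM in the wet control (log2 fold change 3.93 ± 0.70, adjusted p = 0.0111).

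Among metal transporters, NRAMP1, which carries metal ions across the plasma membrane, had 17.7, 2.19 and 1.99 CPM in severe drought, against 879, 1415 and 985 CPM in the wet control. The highest severe library was 17.7 CPM and the lowest wet one 879 (log2 fold change -7.23 ± 1.04, adjusted p = 0.00364). Severe drought replicate 1 held the highest value of its group, and without it the log2 fold change was -9.03. Mild drought again lay between, at 257, 35.8 and 180 CPM, and severe over mild drought gave -4.44 ± 0.92 (adjusted p = 0.805). IRT2, a ferrous iron transporter, had 1 count in all in severe drought, against 1795 in the wet control, a ratio of wet over severe of 1449 (95% exact counting interval 260 to 57256; adjusted p = 0.00501). Severe drought replicate 1 held that count, and without it the severe libraries had 0. YSL2, a transporter of metals bound to nicotianamine, had 0.992, 1.64 and 1.25 CPM in severe drought, against 22.8, 84.1 and 78.6 CPM in the wet control (log2 fold change -5.57 ± 0.99, adjusted p = 0.0107, and 0.0548 and 0.0637 without severe drought replicates 1 and 3). Its mild drought levels, 1.92, 0.944 and 1.90 CPM, were near those of severe drought (severe over mild drought -0.28 ± 0.87).

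IRO3, a bHLH factor that represses the iron deficiency response, had 31.1, 9.89 and 12.5 CPM in severe drought, against 178, 329 and 311 CPM in the wet control. It fell by 3.94 ± 0.59 on the log2 scale (adjusted p = 0.00387) and by 4.61 without severe drought replicate 1, the highest of its group. The remaining 7 tested iron genes did not pass. IDEF1, a transcription factor of the iron deficiency response, had 28.7, 33.3 and 32.2 CPM in severe drought, against 34.0, 39.3 and 54.2 CPM in the wet control (adjusted p = 0.206). YSL16 had 44.6, 33.9 and 37.2 CPM in severe drought, against 37.9, 36.1 and 20.5 CPM in the wet control (adjusted p = 0.455). The vacuolar iron transporter VIT2 had 1.36, 1.17 and 1.65 CPM in severe drought, against 0.311, 0.0277 and 0 CPM in the wet control (log2 fold change 3.59 ± 1.59, adjusted p = 0.244), without overlap, and the log2 fold change was 6.48 when wet control replicate 1 was left out. IRT1, NRAMP5, YSL15 and VIT1 had adjusted p of 0.238 to 0.513.

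**Figure D3:**
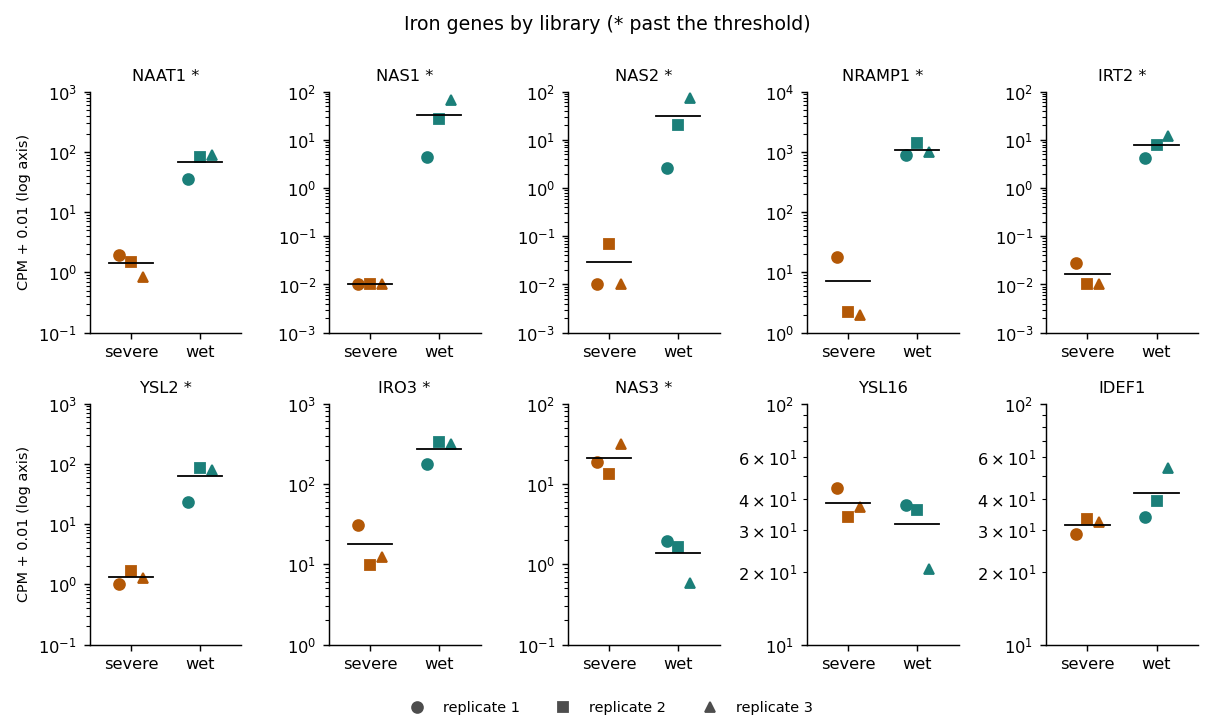
Each panel gives 1 iron gene, with CPM + 0.01 on a log axis for the 3 severe drought libraries (left) and the 3 wet control libraries (right). Symbols mark replicates 1 to 3, bars are group means, and an asterisk marks an adjusted p under 0.05. NAAT1, NAS1, NAS2, NRAMP1, IRT2, YSL2 and IRO3 lie lower in every severe library, NAS3 lies higher, and YSL16 and IDEF1 did not pass.

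Other nutrient lists held fewer calls than the iron list. Over all genes tested 1.64% rose and 1.05% fell, and lists this short may hold 1 call or none. Of 10 tested nitrogen genes only GDH2, a glutamate dehydrogenase gene, was called. It had 6.39, 9.84 and 7.89 CPM in severe drought, against 19.0, 11.3 and 25.3 CPM in the wet control (log2 fold change -1.21 ± 0.25, adjusted p = 0.0220), and the call ended without severe drought replicates 1 or 3 or wet control replicates 1 or 3 (adjusted p = 0.0568 to 0.0946). None of 16 tested phosphate and potassium genes was called. PHR2, the central factor of the phosphate starvation response, had the smallest p of the list, with 49.2, 42.7 and 41.9 CPM in severe drought, against 35.9, 36.2 and 29.8 CPM in the wet control (log2 fold change 0.39 ± 0.11, adjusted p = 0.0775).

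The high-affinity potassium transporter HAK5 had 2.44, 0.462 and 1.90 CPM in severe drought, against 46.1, 11.7 and 3.22 CPM in the wet control (log2 fold change -3.67 ± 1.04, adjusted p = 0.0838). Wet control replicate 1 held most of the wet level, and without it the log2 fold change was -2.21. HAK1, of the same family, had 7.80, 1.24 and 3.00 CPM in severe drought, against 65.9, 29.9 and 3.96 CPM in the wet control (adjusted p = 0.116), with the same order of wet libraries.

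Among growth hormones, 1 of 24 tested genes for auxin, cytokinin, brassinosteroid, ethylene and strigolactone was called, where 1.64% of all genes tested rose and 1.05% fell. CKX2, a cytokinin oxidase that breaks cytokinin down, had 1.08, 0.346 and 0.909 CPM in severe drought, against 10.4, 12.3 and 5.71 CPM in the wet control (log2 fold change -3.61 ± 0.44, adjusted p = 0.00181). The groups did not overlap, and CKX2 was called whichever library was left out (highest adjusted p 0.0116). With the 2 groups alone its adjusted p was 0.0725. Levels of CKX2 in mild drought were 1.17, 2.07 and 1.14 CPM, and severe over mild drought gave -0.92 ± 0.41. The brassinosteroid synthesis gene D2 had 3.45, 4.89 and 4.01 CPM in severe drought, against 6.63, 11.3 and 12.3 CPM in the wet control (log2 fold change -1.29 ± 0.32, adjusted p = 0.0515). RR9, a type-A cytokinin response regulator, had 15.7, 17.05 and 22.0 CPM in severe drought, against 31.0, 41.5 and 27.3 CPM in the wet control (adjusted p = 0.0534). The list median was -0.70, against -0.02 over all genes, and 18 of the 24 members had a negative fold change. The size of this median depended on single libraries. It moved to -0.25 once wet control replicate 3 was dropped, and to -1.02 once severe drought replicate 3 was dropped instead.

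None of 10 tested gibberellin genes was called. For this list and the next 2, the shares over all genes tested were 1.64% that rose and 1.05% that fell. GA20OX2, the gibberellin 20-oxidase known from semidwarf rice, had 6.87, 2.80 and 4.53 CPM in severe drought, against 8.25, 15.2 and 23.8 CPM in the wet control (log2 fold change -1.74 ± 0.47, adjusted p = 0.0691). Of 14 tested jasmonate genes TIFY11A, a JAZ-type repressor, fell by 4.51 ± 0.79 (adjusted p = 0.00965, and 0.0527 without severe drought replicate 3). The log2 fold change of TIFY11A was -3.65 without wet control replicate 2. Of 15 clock, phytochrome and flowering genes, PCL1, a part of the evening complex of the clock, fell by 2.89 ± 0.62 (adjusted p = 0.0279). PCL1 had 16 counts in all in severe drought, against 154 in the wet control, and its call ended without severe drought replicates 2 or 3 or wet control replicate 1 (adjusted p = 0.0970 to 0.128; log2 fold change -2.06 without the last).

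In the chloroplast, NYC1 and SSI rose. NYC1, the chlorophyll b reductase that starts the breakdown of chlorophyll b, had 82.0, 70.7 and 64.7 CPM in severe drought, against 28.9, 19.0 and 14.8 CPM in the wet control. All 3 severe libraries were above all 3 wet ones (log2 fold change 1.79 ± 0.27, adjusted p = 0.00387). Levels of NYC1 in mild drought were 59.5, 81.9 and 43.6 CPM, and severe over mild drought gave 0.23 ± 0.26. Of 10 chlorophyll genes with a checked name no other was called, and 1 of the 5 without one rose. SGR, another chlorophyll breakdown gene, had 3.93, 5.73 and 3.23 CPM in severe drought, against 14.1, 6.21 and 2.83 CPM in the wet control (adjusted p = 0.395).

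SSI, starch synthase I, had 54.7, 50.6 and 34.3 CPM in severe drought, against 7.31, 11.8 and 4.68 CPM in the wet control. The groups did not overlap (log2 fold change 2.55 ± 0.38, adjusted p = 0.00405). In mild drought SSI had 58.9, 36.2 and 28.3 CPM, and severe over mild drought gave 0.18 ± 0.36. SSI was the only 1 of 16 tested genes of sugar transport, sucrose and starch past the threshold, where 1.64% of all genes tested rose. SUS4, a sucrose synthase, had 21.7, 20.8 and 23.6 CPM in severe drought, against 36.3, 29.0 and 39.8 CPM in the wet control (log2 fold change -0.67 ± 0.17, adjusted p = 0.0534).

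Of 5 photosynthesis genes none was called, and GLK1, a factor for chloroplast development, had 668, 411 and 432 CPM in severe drought, against 283, 343 and 185 CPM in the wet control (log2 fold change 0.90 ± 0.28, adjusted p = 0.108). Among 17 antioxidant genes, where 1.64% of all genes tested rose, only APX1, a cytosolic ascorbate peroxidase, was called, and it rose by 2.07 ± 0.45 (adjusted p = 0.0288). It had 163, 157 and 188 CPM in severe drought, against 74.8, 31.6 and 14.7 CPM in the wet control, and without wet control replicate 1 the log2 fold change was 2.87. Its call ended without any severe replicate and without wet control replicate 2 (adjusted p = 0.0567 to 0.0976).

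**Figure D4:**
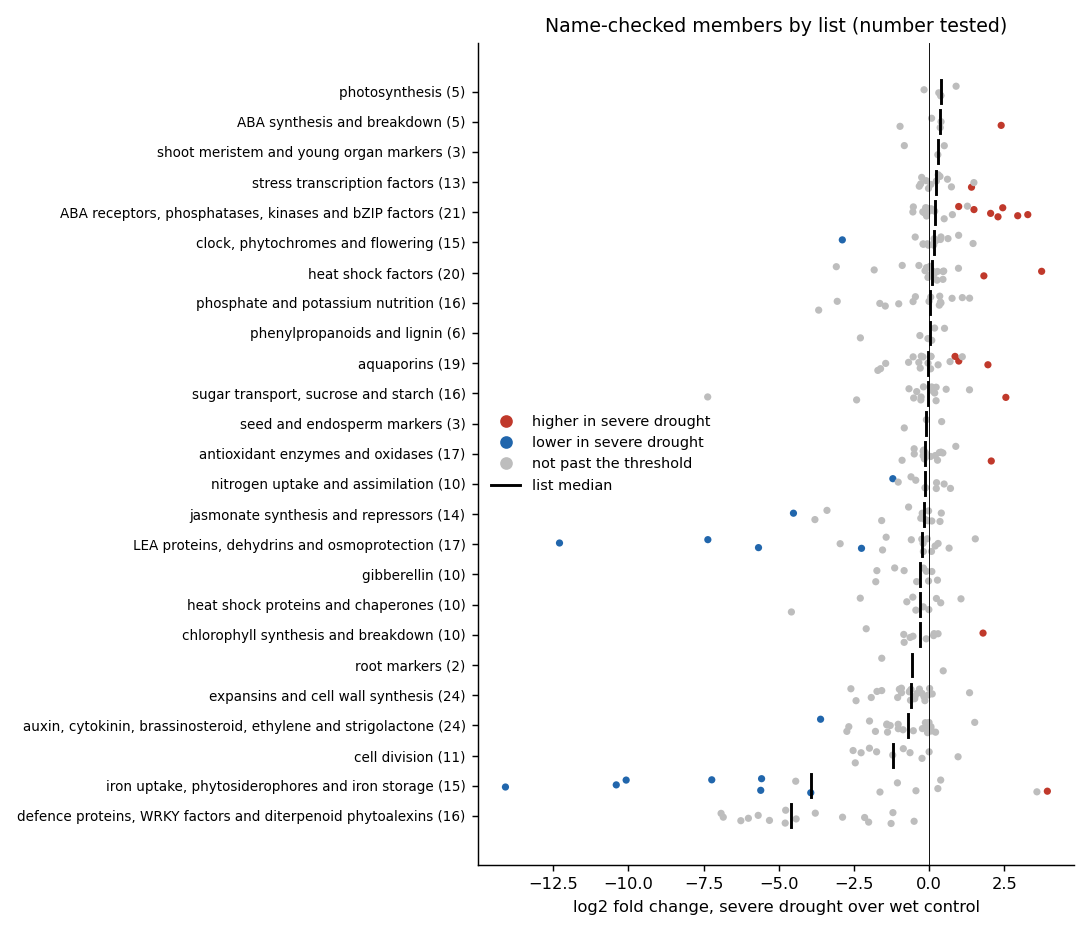
Each point is 1 tested member with a checked name, placed by its log2 fold change of severe drought over the wet control, in 25 lists sorted by their median (black bar), with the number tested in brackets. Red points rose and blue points fell at an adjusted p under 0.05. The iron list, with a median of -3.94 (-2.46 when wet control replicate 3 is left out), holds 7 that fell, and the defence list, with a median of -4.60, holds no call.

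Some lists followed single libraries. All 16 tested genes for defence proteins, WRKY factors and diterpenoid phytoalexins, antimicrobial compounds of rice, had a negative fold change, with a list median of -4.60, and none was called. The groups of 7 of the 16 did not overlap, against 19.9% of all genes tested. In each of the 16, the top wet library was replicate 1, and without it the list median was -3.03. Leaving out severe drought replicate 3 gave -5.38. CPS4, the first enzyme of momilactone synthesis, had 1.29, 0.0577 and 1.01 CPM in severe drought, against 143, 32.2 and 2.67 CPM in the wet control (log2 fold change -6.26 ± 1.81, adjusted p = 0.0890). It was -4.48 when wet control replicate 1 was left out, and -5.67 when severe drought replicate 2 was.

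MAS1, which completes momilactone A, had 0.0734, 0 and 0.101 CPM in severe drought, against 16.9, 2.32 and 0.727 CPM in the wet control, the smallest p of the list (adjusted p = 0.0559). Its log2 fold change of -6.85 was -4.71 with wet control replicate 1 left out, and -6.20 and -7.55 with severe drought replicates 2 and 3 left out. WRKY62, a transcription factor gene, had 0.147, 0.404 and 0.640 CPM in severe drought, against 18.8, 4.30 and 2.69 CPM in the wet control (adjusted p = 0.0574). In each of these genes replicate 1 was the highest and replicate 3 the lowest wet library, and the spread within the wet control was as wide as 143 to 2.67 CPM for CPS4.

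Genes for cell walls followed 2 other libraries. Of 24 tested expansins and cell wall synthesis genes none was called (1.64% of all genes tested rose and 1.05% fell), with a list median of -0.61. Replicate 3 was the top wet library in 23 of the 24, severe drought replicate 1 the lowest severe library in all 14 expansins and all 8 cellulose synthases, and without wet control replicate 3 the list median was 0.01. Leaving out severe drought replicate 2 gave -1.21. The cellulose synthase CESA7 had 21.3, 65.9 and 25.2 CPM in severe drought, against 57.5, 34.9 and 131 CPM in the wet control (adjusted p = 0.504). Its groups overlapped, with severe drought replicate 2 above 2 of the wet libraries. PORA, a protochlorophyllide oxidoreductase of young greening tissue, had 85.7, 229 and 324 CPM in severe drought, against 487, 443 and 1797 CPM in the wet control (adjusted p = 0.190), and its log2 fold change of -2.09 was -1.12 without wet control replicate 3.

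Of 11 tested cell division genes none was called (1.64% of all genes tested rose and 1.05% fell), with a list median of -1.21. The 6 tested subunits of the MCM replication helicase had log2 fold changes of -2.53 to -0.24, and the groups of 5 did not overlap, against 19.9% of all genes tested. MCM7 had 0.184, 0.0865 and 0.135 CPM in severe drought, against 0.398, 0.650 and 0.552 CPM in the wet control (adjusted p = 0.193), levels that rest on 24 counts in severe drought against 120 in the wet control. CDKB1-1, a mitotic kinase, went the other way, with 6.87, 5.68 and 5.47 CPM in severe drought, against 2.76, 3.69 and 2.79 CPM in the wet control (adjusted p = 0.0561). The shoot meristem and young organ markers summed to 83.0, 80.2 and 95.6 CPM in severe drought, against 53.1, 68.8 and 71.2 CPM in the wet control, mostly from FON1 and NAL1, while OSH1 and LAX1 had 0 counts. Of the 3 tested markers 2 had a positive fold change and none was called, and NAL1 had the smallest p (0.50 ± 0.17, adjusted p = 0.134). Their list median was 0.29, and -0.26 without the low-count filter. The part of tissue makeup in these differences was not tested.

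**Figure D5:**
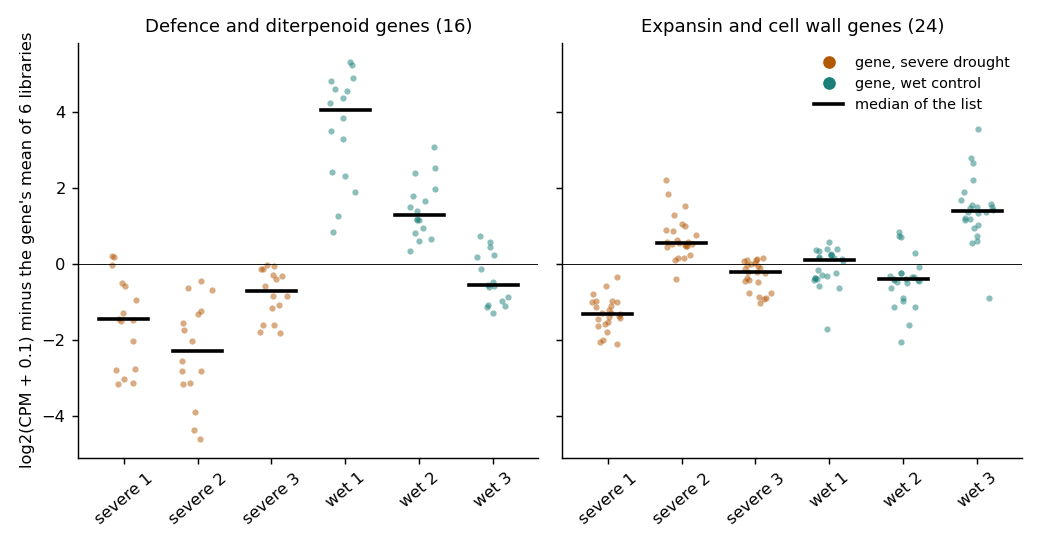
For 16 defence and diterpenoid genes (left panel) and 24 expansin and cell wall genes (right panel), each point is 1 gene in 1 library, as log2(CPM + 0.1) minus the gene's mean over the 6 libraries, and bars are list medians. Wet control replicate 1 has the highest median for defence genes, at 4.03, and wet control replicate 3 for cell wall genes, at 1.40.

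By a rule on size, 4 further genes outside the lists are given by locus number alone: the 2 largest rises and 2 largest falls past the threshold without overlap, at 5 CPM or more in the higher group. LOC_Os05g11320.MSUv7.0 had 346, 213 and 480 CPM in severe drought, against 24.4, 14.2 and 3.14 CPM in the wet control (log2 fold change 4.64 ± 0.79, adjusted p = 0.00867, and 5.33 without wet control replicate 1). LOC_Os06g06900.MSUv7.0 had 5.45, 6.43 and 6.65 CPM in severe drought, against 0.845, 0.208 and 0.458 CPM in the wet control (log2 fold change 3.61 ± 0.52, adjusted p = 0.00346, and 4.22 without wet control replicate 1). Both were higher in every severe library. Mild drought levels of the first were 281, 518 and 113 CPM, and those of the second 2.77, 3.43 and 4.42 CPM.

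LOC_Os06g19110.MSUv7.0 had 0 counts in severe drought, against 15.6, 64.4 and 38.4 CPM in the wet control, at least 2357-fold lower, a bound of 1465 when severe drought replicate 2 is left out. Its adjusted p was 0.00387, and 0.0564 with the 2 groups alone. LOC_Os12g18410.MSUv7.0 had 0.0734, 0 and 0.0337 CPM in severe drought (6 counts in all), against 120, 493 and 365 CPM in the wet control (72453 counts; adjusted p = 0.00338, and 0.0212 with the 2 groups alone). In mild drought it had 1.23, 0.0798 and 8.42 CPM, and severe over mild drought gave -6.54 with an adjusted p of 1. Its fitted log2 fold change of -13.18 was -14.18 and -12.52 without severe drought replicates 1 and 2.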

How the data were processed

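The values are read counts per gene as the authors deposited them, whole numbers that were not normalized. Libraries were stranded, per the labels' protocols. The submitters' processing notes name Trimmomatic, HISAT2 and featureCounts, tools that trim, align and count reads, without versions. Genome build and strand setting are not given in the sources used, so reads of antisense genes may be mixed. Tests were run with edgeR 4.0.16 in R 4.3.3 (filterByExpr, minimum count 10; TMM; robust quasi-likelihood fit, 1 mean per group over 15 libraries), adjusted over 20462 genes. ± values are SE. Bounds use 3 counts as the floor, and bounds and intervals cover counting error only.

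Of 520 loci in 26 lists, 495 were in the table. A name was used where the reference (assembly ASM3414082v1) held its symbol within 1000 kb of the place its locus number predicts, which 355 in the table met (median distance 40.3 kb); tandem neighbours cannot be told apart, and no cuticular wax gene met it. Members and lists were chosen with earlier results of these data known. The naming rule took up to 3 called members per list, else the smallest p; 10 further called members and the others quoted were added after their values were seen. Alternatives included DESeq2 1.42.0. The method was tested on simulated data.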

Additional observations from a re-analysis of the deposited data

How the results depend on the processing

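Of 71 genes followed through each setting only EXPB4, an expansin, changed sign: its log2 fold change of -2.60 was 0.07 without wet control replicate 3, and leaving out severe drought replicate 2 gave -3.53. List medians near 0 also changed sign in some settings. The 335 genes that rose and 215 that fell became 200 and 257 with total counts only, 911 and 893 with DESeq2, 13 and 19 with the 2 groups alone, and 189 and 180 with a further 2-fold limit. Leaving out 1 library gave 142 to 353 that rose and 73 to 264 that fell, lowest in both directions without severe drought replicate 3 and highest without wet control replicate 2. RLE size factors gave 373 and 214, and no filter 302 and 199. Of the 33 listed genes called, 18 were called whichever library was left out, all 33 by DESeq2 and with RLE factors, 31 with total counts only and 5 with the 2 groups alone (NAAT1, IRT2, YSL2, LEA3-2 and PP2C09). Severe against mild drought gave 0 calls with edgeR and 46 with DESeq2. Replicate numbers did not pair the libraries: deviations of same-numbered severe and wet libraries correlated at 0.192, -0.449 and 0.176. Between unlike numbers the correlations reached 0.566 (severe drought replicate 1 with wet control replicate 2). The lowest was -0.565 (severe drought replicate 1 with wet control replicate 3). With the replicate number as a block 264 genes rose and 152 fell, and 32 of the 33 listed calls held. The cause of these moves was not tested.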
